A study of Mus musculus with 48 samples.

Results

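Ribosome biogenesis genes are the genes whose products transcribe, modify, cut and assemble ribosomal RNA into ribosomal subunits. A set of 46 of them was followed through RNA sequencing of mouse Cas9-Hoxb8 cells, picked by gene name from the 25528 genes of the counts table. The rule uses names and no measured value, but the set was chosen with earlier results of these data known. By role, 7 act in transcription by RNA polymerase I, 4 are proteins of box C/D snoRNPs, 4 are proteins of box H/ACA snoRNPs, 5 are nucleolar scaffolds and helicases, 14 process the small subunit and 12 process the large subunit. All 46 were found in the table, and all 46 passed the filter on low counts.

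RNA polymerase I transcribes a long precursor in the nucleolus. Small nucleolar ribonucleoproteins (snoRNPs) guide its chemical modification, box C/D particles for ribose methylation and box H/ACA particles for pseudouridylation, and the small subunit processome and the large subunit assembly factors cut and fold it. These genes are known as a growth programme: dividing progenitor cells of the blood express them at a high level, the transcription factor MYC raises them, and faults in ribosome production can stabilise p53, the product of Trp53.

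The study used Hoxb8 lines, conditionally immortalised blood progenitors that carry the Cas9 nuclease and are labelled GMP (granulocyte-monocyte progenitor). There were 16 groups with 3 libraries each. Transformed clones made up 4 groups: Trp53-KO clones 4 and 6 and E6l2-Trp53-KO clones 7 and 12, labelled as transformed by etoposide, an inhibitor of topoisomerase II that breaks DNA. The other 12 groups were 4 genotypes (Trp53-KO, E6l2-Trp53-KO, E6l2-KO and wildtype) kept for 48 h with etoposide, at high density, or in DMSO, the drug's solvent. E6l2 is the label's short form of Ercc6l2, a gene for a helicase-like protein of DNA repair. High density was 4 M cells per well, against 0.25 M cells per well in the other cultures. Transformed cells received no further drug before RNA was taken. The labels give neither the etoposide concentration nor whether a genotype is 1 edited line, and do not say whether the 3 libraries of a group came from separate cultures, so p-values measure the spread between these libraries, which may be technical.

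The libraries held 22.5 to 114.4 M counts (median 27.4 M). Trp53 RNA was 28.1, 29.2 and 29.3 CPM (counts per M mapped counts, M for mega) in Trp53-KO cells in DMSO, against 77.1, 77.1 and 83.0 CPM in wildtype cells in DMSO. Ercc6l2 RNA differed by a log2 fold change of -0.16 between E6l2-KO and wildtype cells in DMSO (adjusted p 0.124), so its level does not check that edit. All 10 progenitor markers exceeded 1 CPM in every untransformed group. In the transformed clones 7 to 10 of those 10 did, and all 10 mast cell and basophil markers exceeded 1 CPM. The columns of clone 4 replicate 3, clone 12 replicate 3 and E6l2-Trp53-KO etoposide replicate 3 stood outside the order of the rest in the table, with totals of 68.4, 114.4 and 40.9 M.

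In wildtype cells in DMSO the members ranged widely when levels were set per kilobase of each gene's longest annotated transcript. That transcript need not be the one expressed, so the order below depends on this choice. Npm1, the nucleolar chaperone nucleophosmin, was highest at 799 CPM per kb. The box H/ACA proteins Nop10 and Nhp2 followed at 338 and 165 CPM per kb. Fbl, the ribose methyltransferase fibrillarin, had 71.8 and the scaffold nucleolin, Ncl, 40.6 CPM per kb. The lowest were the small subunit factor Bysl at 8.5, the large subunit factor Noc3l at 7.13 and Dimt1, the enzyme that dimethylates 18S ribosomal RNA, at 6.96 CPM per kb. Levels below are CPM on the TMM scale, which sets libraries against the middle of all genes. A gene is called when its adjusted p is under 0.05 by edgeR's quasi-likelihood test with Benjamini-Hochberg adjustment over all genes tested.

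The change in the transformed clones was the largest of the study's comparisons for these genes. The members' summed level was 2551 ± 48.5 CPM for clone 4 and 2625 ± 66.5 CPM for clone 6, against 6421 ± 202 CPM in Trp53-KO DMSO (SD, n = 3 each). It was 2346 ± 15.8 CPM for clone 7 and 2397 ± 60.5 CPM for clone 12, against 6632 ± 131 CPM in E6l2-Trp53-KO DMSO (SD, n = 3 each). In counts as deposited, the members took 0.213% to 0.259% of each clone library and 0.684% to 0.741% of each DMSO library of those genotypes. In these bulk samples, fewer cells of a type and less RNA per cell cannot be told apart.

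In clone 4, 45 members fell, where 80.4% of all genes were called and 38.7% were called lower. In clone 6, 45 fell (77.5% of all genes called, 38.9% lower). In clone 7, 46 fell (79.5% called, 38.9% lower), and in clone 12, 46 fell (79.7% called, 39.3% lower). The median log2 fold change of the members was -1.36, -1.28, -1.39 and -1.36 in clones 4, 6, 7 and 12. Fitting the same libraries on library totals left 45, 46, 46 and 46 members lower. In all 4 clones 44 members fell, and 25 fell by at least 1 on the log2 scale in each. The share of all genes doing so in all 4 clones was not counted. The exceptions were Nop14, a small subunit processome protein, at 0.04 in clone 4, and Bysl at -0.08 in clone 6, neither of them called. Clones 4 and 6 share their DMSO libraries, as do clones 7 and 12.

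Among the RNA polymerase I genes, Polr1b, the second largest subunit of the enzyme, had 25, 23 and 23.3 CPM for clone 4 and 26.9, 24.1 and 24.0 CPM for clone 6, against 101, 107 and 104 CPM in Trp53-KO DMSO. It had 24.4, 26.1 and 24.4 CPM for clone 7 and 25.8, 24.4 and 24.4 CPM for clone 12, against 94.7, 104 and 104 CPM in E6l2-Trp53-KO DMSO. Every clone library lay far below every DMSO library, and the 4 clones were alike. Rrn3, the initiation factor that makes the polymerase competent to start, fell less: it had 44.1 to 48.0 CPM in clones 4 and 6, against 76.7 to 81.9 CPM in Trp53-KO DMSO. Ubtf, which binds the promoter of the ribosomal RNA genes, had 92.6 to 98.5 CPM in clones 4 and 6, against 159 to 164 CPM in Trp53-KO DMSO, and 121 to 124 CPM in clones 7 and 12, against 162 to 165 CPM in E6l2-Trp53-KO DMSO. Mybbp1a, a nucleolar MYB-binding protein, fell to 44.0 ± 2.11 CPM for clone 7, against 206 ± 4.08 CPM in E6l2-Trp53-KO DMSO (SD, n = 3 each; log2 fold change -2.23). The median over the 7 genes was -1.40, -1.27, -1.11 and -1.10 in clones 4, 6, 7 and 12.

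The snoRNP proteins fell most by role. The box H/ACA median was -1.95, -1.83, -1.72 and -1.81 and the box C/D median -1.50, -1.45, -1.89 and -1.85 in clones 4, 6, 7 and 12. Dkc1, the pseudouridine synthase dyskerin, had 24.8, 26.5 and 25.3 CPM for clone 4 and 26.8, 26.3 and 28.4 CPM for clone 6, against 130, 142 and 124 CPM in Trp53-KO DMSO. In clone 7 it had 20, 19.4 and 17.3 CPM and in clone 12 17.8, 20.7 and 20.9 CPM, against 122, 131 and 130 CPM in E6l2-Trp53-KO DMSO. No clone library reached the DMSO range. The log2 fold change of Dkc1 was -2.37 in clone 4 (adjusted p 1.05e-19, edgeR) and -2.77 in clone 7 (adjusted p 1.57e-20, edgeR). Nop58, a core protein of box C/D particles, had 55.2 to 63.2 CPM in clones 4 and 6, against 139 to 167 CPM in Trp53-KO DMSO. Nop58 had 36.9 to 43.7 CPM in clones 7 and 12, against 147 to 161 CPM in E6l2-Trp53-KO DMSO. Fbl had 52.7 to 63.4 CPM in clones 4 and 6, against 170 to 172 CPM in Trp53-KO DMSO. Its values were 47.4 to 60 CPM in clones 7 and 12, against 184 to 192 CPM in E6l2-Trp53-KO DMSO.

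The scaffold genes Npm1 and Ncl fell in all 4 clones. Npm1 had 516, 546 and 520 CPM for clone 4 and 541, 486 and 514 CPM for clone 6, against 1330, 1470 and 1270 CPM in Trp53-KO DMSO. It had 376, 380 and 358 CPM for clone 7 and 372, 408 and 427 CPM for clone 12, against 1310, 1410 and 1460 CPM in E6l2-Trp53-KO DMSO. The clone libraries were all below the DMSO libraries. Ncl had 121 to 143 CPM in clones 4 and 6, against 286 to 297 CPM in Trp53-KO DMSO, and 107 to 141 CPM in clones 7 and 12, against 303 to 317 CPM in E6l2-Trp53-KO DMSO.

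The largest fall of any member was in Rrp1b, a nucleolar protein of large subunit processing (chromosome 17, 32036100 to 32062865, plus strand, GENCODE M21 on GRCm38). It had 6.14, 6.34 and 5.79 CPM for clone 4 and 6.28, 6.69 and 6.24 CPM for clone 6, against 63.5, 65.9 and 62.0 CPM in Trp53-KO DMSO. In clone 7 it had 7.31, 7.42 and 8.03 CPM and in clone 12 7.27, 8.44 and 7.84 CPM, against 54.9, 57.8 and 58.5 CPM in E6l2-Trp53-KO DMSO. The groups were far apart. The log2 fold change was -3.40 (SE 0.057, adjusted p 4.49e-23) in clone 4, and the least of the 4 was -2.86 (SE 0.054, adjusted p 3.94e-22) in clone 12, by edgeR. Rrp1b, Dkc1 and Polr1b were the 3 members that fell by at least 2 on the log2 scale in every clone. The share of all genes that did so was not counted.

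Pes1 and Bop1 are partners in the PeBoW complex of large subunit assembly, and both fell less than Rrp1b. Pes1 had 72.0 to 78.5 CPM in clones 4 and 6, against 159 to 162 CPM in Trp53-KO DMSO. Pes1 had 76.8 to 84.2 CPM in clones 7 and 12, against 154 to 165 CPM in E6l2-Trp53-KO DMSO. Bop1 had 47.9 to 60.3 CPM in clones 4 and 6, against 95.9 to 98.8 CPM in Trp53-KO DMSO. Bop1 had 44.2 to 48.2 CPM in clones 7 and 12, against 105 to 112 CPM in E6l2-Trp53-KO DMSO. The small subunit genes had a median of -1.11, -1.04, -0.91 and -0.88 in clones 4, 6, 7 and 12, the smallest of the 6 roles in clones 6, 7 and 12, with Heatr1, a processome scaffold, at -2.39 in clone 4 and Rrp12, a factor in the export of subunits, at -2.01 in clone 7.

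**Figure D1:**
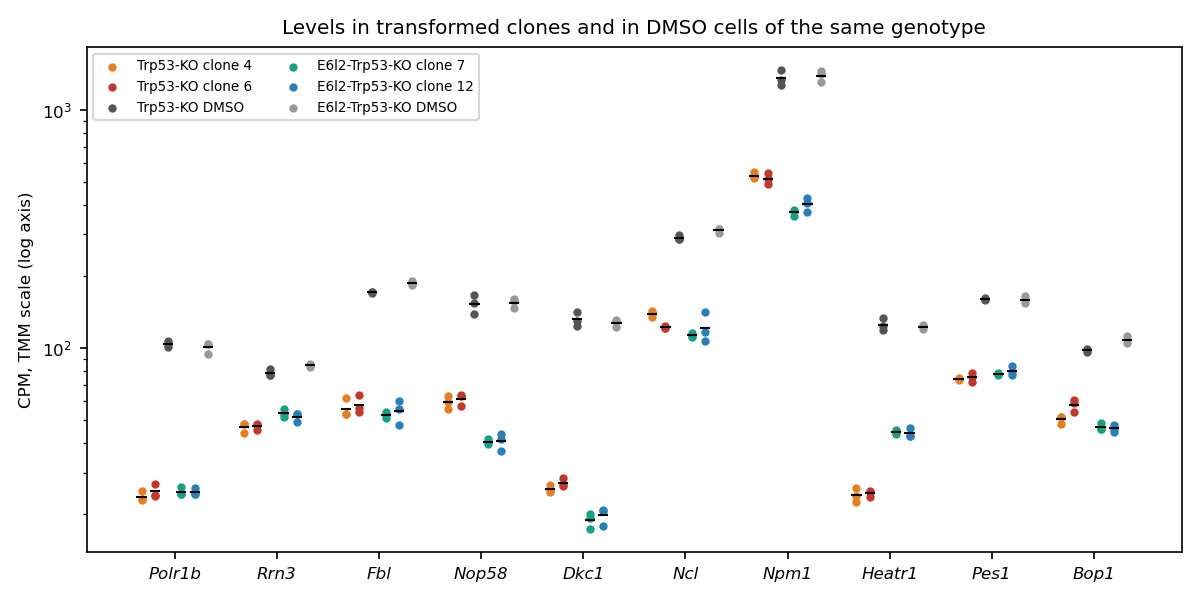
Level of 10 members in each library of the 4 transformed clones and of DMSO cells of the same genotypes (points, CPM on the TMM scale, log axis), with black bars at the mean of 3 libraries. Every clone library of every gene shown lies below the DMSO libraries of its genotype, from Dkc1 at 17.3 CPM to Npm1 at 546 CPM in the clones.

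Genes of the pathway outside the 46 moved with them. Of 40 other small subunit processing genes tested, 37, 36, 37 and 36 fell in clones 4, 6, 7 and 12, and of 46 other large subunit processing genes 42, 43, 43 and 43 fell. Of 10 other RNA polymerase I genes, 7, 6, 8 and 8 fell, while Polr1h, a small subunit of the polymerase, was higher by 0.92, 1.04, 1.03 and 0.95 on the log2 scale. Of 40 cytosolic ribosomal protein genes, 39, 39, 40 and 40 fell. All 20 S phase genes fell in each clone. Myc had 24.0, 21.1 and 20.9 CPM for clone 4 and 25.3, 25.8 and 25.4 CPM for clone 7, against 172, 172 and 179 CPM in Trp53-KO DMSO and 160, 154 and 157 CPM in E6l2-Trp53-KO DMSO. Its log2 fold change was -2.99, -2.82, -2.62 and -2.29 in clones 4, 6, 7 and 12. The part of Myc in the members' fall was not tested.

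The clones also differed from their DMSO cells in cell markers. The 10 mast cell and basophil markers summed to 116000 to 142000 CPM in the transformed clones, which is 11.6% to 14.2% of the CPM, and none was at 0. They summed to 1710 to 2290 CPM in the DMSO cells of these genotypes, where 6 to 7 of the 10 exceeded 1 CPM. The 10 progenitor markers summed to 5530 to 6830 CPM in the clones, against 6530 to 8590 CPM in those DMSO cells, with Mpo, which encodes the granule enzyme myeloperoxidase, at 0.992 CPM in clone 6. With the mast cell and basophil markers left out of the counts, the same 4 comparisons called 45, 45, 46 and 46 members lower, as they did with the markers in. The TMM scale rests on the middle of all genes, so leaving out 10 of them could hardly move it. That fit therefore says nothing of cell type. The part of a change of cell type in the members' fall was not tested.

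Since the members fell together, their promoters were read for the E-box CACGTG, the 6 bases that MYC binds in complex with MAX. RefSeq promoter windows (GRCm38.p6, 250 bases before to 50 bases after each start) were matched by symbol for 40 of the 46 members. CACGTG, which reads the same on both strands, stood in 7 of them (17.5%), against 2187 of 27025 genes with a window (8.1%). The 7 were Imp4, Mybbp1a, Nop2, Pes1, Rrn3, Utp20 and Wdr43. Shown in full are the 1 window that held it in 2 places, that of Rrn3 (chr16:13780449-13780748, plus strand, first bases 215 and 48 before the start), and those of Nop2, an RNA methyltransferase of the large subunit (chr6:125131633-125131932, plus strand, 60 before the start), and Mybbp1a (chr11:72441077-72441376, plus strand, 40 after it). Capitals mark CACGTG.
Rrn3: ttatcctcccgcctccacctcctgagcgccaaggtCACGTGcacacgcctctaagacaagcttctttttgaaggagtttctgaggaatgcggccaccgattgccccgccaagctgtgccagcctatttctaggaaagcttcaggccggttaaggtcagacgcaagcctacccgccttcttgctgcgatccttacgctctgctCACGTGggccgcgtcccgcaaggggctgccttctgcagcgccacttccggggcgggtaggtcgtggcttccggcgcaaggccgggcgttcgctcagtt
Nop2: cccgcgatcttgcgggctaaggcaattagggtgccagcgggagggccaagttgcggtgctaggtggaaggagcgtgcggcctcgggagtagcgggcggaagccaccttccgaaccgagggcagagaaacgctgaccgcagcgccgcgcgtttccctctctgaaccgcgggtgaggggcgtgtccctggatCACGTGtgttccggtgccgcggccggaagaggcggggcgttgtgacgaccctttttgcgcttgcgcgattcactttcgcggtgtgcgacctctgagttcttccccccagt
Mybbp1a: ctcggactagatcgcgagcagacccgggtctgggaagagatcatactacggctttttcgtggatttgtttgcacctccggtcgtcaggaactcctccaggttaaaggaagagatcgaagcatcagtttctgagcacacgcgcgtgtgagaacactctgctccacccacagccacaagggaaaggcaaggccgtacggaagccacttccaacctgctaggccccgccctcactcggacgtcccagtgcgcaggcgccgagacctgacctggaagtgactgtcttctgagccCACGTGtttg
The 7 members with the motif had a median log2 fold change of -1.36, -1.21, -1.48 and -1.52 in clones 4, 6, 7 and 12, and the other 33 with a window -1.29, -1.28, -1.28 and -1.35. A match is a description of the letters in a window and says nothing of binding in these cells.

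Between the genotypes of the transformed clones, E6l2-Trp53-KO clones were set against Trp53-KO clones with the 3 libraries of each clone summed, so that n = 2 clones each. Of the 46 members, 13 were called, 5 higher and 8 lower, where 29.1% of all genes were called (15.3% higher, 13.8% lower). The members were thus called at about the rate of all genes, and the genes below are single cases. The 4 members with the largest rise were Dimt1, Nop16, Heatr1 and Utp15. Dimt1 had 11.6, 12.4 and 11.2 CPM for clone 7 and 11.7, 11.2 and 10.3 CPM for clone 12, against 4.88, 4.73 and 4.52 CPM for clone 4 and 5.83, 4.62 and 5.10 CPM in clone 6. The genotypes did not overlap, and the summed clones averaged 10.8 ± 0.496 CPM and 4.69 ± 0.414 CPM (SD, n = 2 each; log2 fold change 1.20, SE 0.14, adjusted p 0.00427, edgeR). Heatr1 had 42.7 to 46.3 CPM in clones 7 and 12, against 22.6 to 25.8 CPM in clones 4 and 6 (log2 fold change 0.89, SE 0.076, adjusted p 0.00181, edgeR). Nop16, a large subunit factor, had 19.3 to 22.9 CPM in clones 7 and 12, against 9.95 to 12.1 CPM in clones 4 and 6 (log2 fold change 0.94). Utp15, a processome protein, had 31.2 to 35.3 CPM in clones 7 and 12, against 16.4 to 20.7 CPM in clones 4 and 6 (log2 fold change 0.87).

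Those 4 genes are the 4 members on chromosome 13. By GENCODE M21 on GRCm38 they lie at 12395027 to 12440289 (Heatr1, plus strand), 54584185 to 54590090 (Nop16, minus strand), 98246845 to 98263041 (Utp15, minus strand) and 106947127 to 106960224 (Dimt1, plus strand). All 623 genes tested on chromosome 13 had a median log2 fold change of 0.84 between the clone genotypes, and the 4 members 0.91. Against their own DMSO cells, the genes of chromosome 13 had a median of -0.86 in clone 4 and -0.87 in clone 6, and of -0.01 in clone 7 and -0.07 in clone 12. The 4 members had medians of -2.33, -2.24, -1.21 and -1.27 in clones 4, 6, 7 and 12. Set relative to the median of their chromosome, they stood at -1.48, -1.36, -1.20 and -1.20, and the 42 members elsewhere at -1.40, -1.30, -1.46 and -1.42. Copy number was not measured.

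Of the 8 members lower in the E6l2-Trp53-KO clones, Ddx18, Nop58 and Wdr12 are on chromosome 1, where all genes tested had a median of -0.33. Ncl, Imp4 and Rrs1 are also there and were not called, at -0.082, -0.03 and 0.125. The 6 members on chromosome 1 had a median of -0.242. Ddx18, a helicase of large subunit assembly, stood at -0.56 on the log2 scale (SE 0.097, adjusted p 0.0128) and Nop58 of -0.52 (SE 0.074, adjusted p 0.00679), by edgeR. Rrp12 and Bysl, both of the small subunit, stood at -0.55 (adjusted p 0.0225) and -0.43 (adjusted p 0.042). Leaving out a clone leaves 1 clone on that side, assumed to vary like the others, and 1 residual degree of freedom: 4 members were then called without clone 7, 7 without clone 12, 8 without clone 6 and 10 without clone 4. The call on Bysl was lost whichever clone was left out, that on Rrp12 without clone 6, 7 or 12, and those on Nop58 and Ddx18 without clone 7, where they stood at -0.46 and -0.44.

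**Figure D2:**
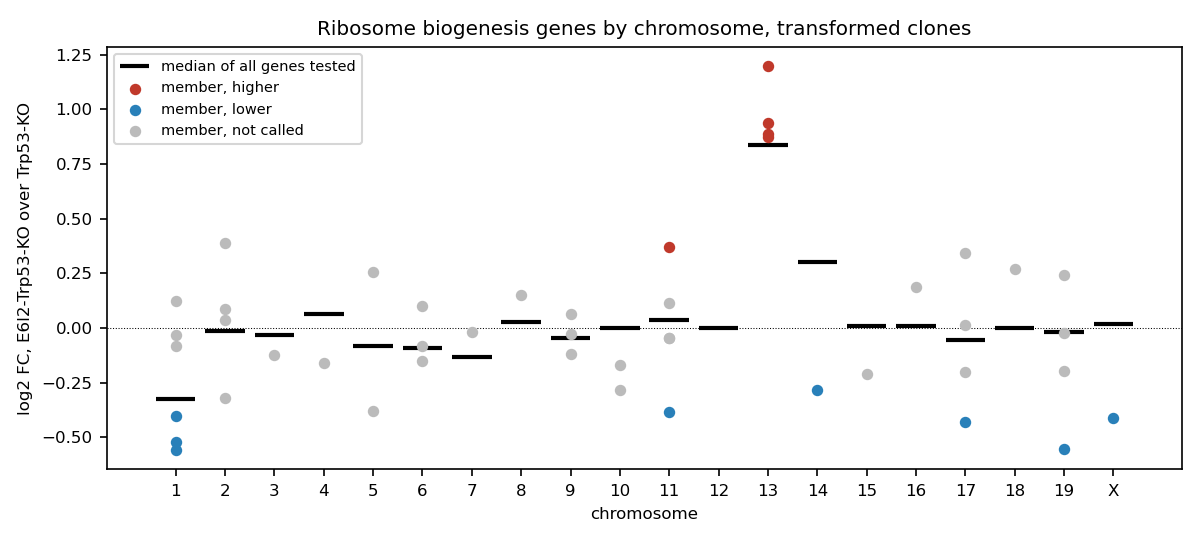
Log2 fold change of each member between E6l2-Trp53-KO and Trp53-KO transformed clones by chromosome (points, coloured by call), with a black bar at the median of all genes tested on that chromosome. The 4 members on chromosome 13 lie at 0.87 to 1.20, next to that chromosome's median of 0.84.

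At high density more of the members fell than rose in each genotype, though in wildtype cells this rested on high density replicate 1, without which 6 were higher and 5 lower. In E6l2-KO cells the excess of falls also leaned on high density replicate 1, without which 4 were higher and 6 lower. Of the 46, 13 fell and 5 rose in wildtype cells (48.5% of all genes called; 23.6% lower, 24.9% higher), and 17 fell and 2 rose in E6l2-KO cells (40.7% called; 18.4% lower, 22.3% higher). In Trp53-KO cells 26 fell and 3 rose (44.7% called; 20.9% lower, 23.9% higher), and in E6l2-Trp53-KO cells 38 fell and 1 rose (46.2% called; 20.7% lower, 25.5% higher). The members' median log2 fold change was -0.07, -0.08, -0.18 and -0.26 in that order of genotypes. On library totals, where the median of all genes itself stood at -0.15, -0.15, -0.08 and -0.10, the members' counts were 28, 35, 35 and 42 lower and 1, 1, 0 and 0 higher. Relative to the median of all genes the members stood at -0.05, -0.07, -0.18 and -0.27 on the TMM scale, and within 0.01 of these on library totals.

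The summed level of the members was 5991, 6328 and 6751 CPM at high density in wildtype cells, against 6512 to 6609 CPM in DMSO. It was 5513, 5952 and 6033 CPM at high density in E6l2-Trp53-KO cells, against 6801 to 7012 CPM in DMSO. The ranges overlapped in wildtype cells and were apart in E6l2-Trp53-KO cells. In all 4 genotypes the high density library numbered 1 had the lowest sum of its group. Without it, 11 members were called in wildtype cells in place of 18, 6 higher and 5 lower, with a median of -0.01. In E6l2-KO cells 10 were called without it in place of 19, 4 higher and 6 lower, with a median of -0.045. Without E6l2-KO DMSO replicate 3, 12 were called in E6l2-KO cells.

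**Figure D3:**
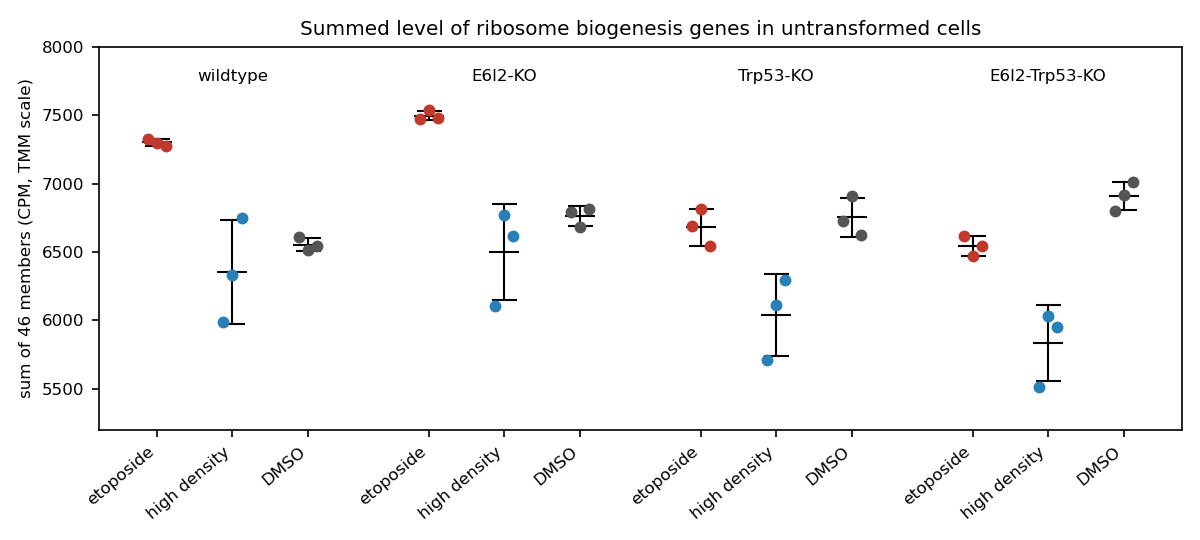
Summed level of the 46 members in each untransformed library (points, CPM on the TMM scale; the axis begins above 0), with bars at the mean and SD of 3 libraries. Etoposide stands above DMSO on this scale in wildtype (7303 against 6554 CPM) and E6l2-KO cells (as a share of all counts 0.676% against 0.691% in wildtype, the other order, and 0.708% against 0.704% in E6l2-KO cells), and high density stands below DMSO in E6l2-Trp53-KO cells.

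Small subunit processing, the role with the most members, also held the largest number lower at high density. Of its 14 genes 7 were lower in wildtype and E6l2-KO cells, 8 in Trp53-KO cells and 11 in E6l2-Trp53-KO cells. By share it did not lead in Trp53-KO and E6l2-Trp53-KO cells, where all 4 box C/D genes were lower. Utp20, a large scaffold of the processome, had 83.4, 101 and 93.4 CPM at high density in wildtype cells, against 123, 125 and 121 CPM in DMSO. It had 65.3, 81.2 and 70.0 CPM at high density in E6l2-Trp53-KO cells, against 111, 105 and 112 CPM in DMSO. All high density libraries were below all DMSO libraries in both. The log2 fold change of Utp20 was -0.41 (SE 0.078, adjusted p 6.32e-05) in wildtype, -0.38 (adjusted p 0.00019) in E6l2-KO, -0.51 (SE 0.079, adjusted p 2.85e-06) in Trp53-KO and -0.60 (SE 0.079, adjusted p 1.29e-07) in E6l2-Trp53-KO cells, by edgeR. Rrp12 had 27.1, 32.6 and 36.1 CPM at high density in Trp53-KO cells, against 47.5, 44.3 and 46.1 CPM in DMSO. In E6l2-Trp53-KO cells Rrp12 had 23.1, 34.1 and 28.4 CPM at high density, against 46, 48.6 and 44.4 CPM in DMSO. High and low were again apart, and the log2 fold change was -0.53 (SE 0.11, adjusted p 0.000119) in Trp53-KO and -0.71 (SE 0.11, adjusted p 1.54e-06) in E6l2-Trp53-KO cells, by edgeR. In wildtype cells Rrp12 was at -0.30 (adjusted p 0.0172), a call lost without high density replicate 1 or without DMSO replicate 2 or 3. In E6l2-KO cells it was at -0.33 (adjusted p 0.0119), lost without high density replicate 1 or DMSO replicate 3.

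Bop1 showed the largest fall among the large subunit genes in Trp53-KO and in E6l2-Trp53-KO cells. It had 65.1, 65.8 and 71.1 CPM at high density in Trp53-KO cells, against 101, 102 and 105 CPM in DMSO, and 60.8, 76.2 and 74.4 CPM in the E6l2-Trp53-KO ones, against 110, 117 and 112 CPM in DMSO. No library of these groups crossed over. Its log2 fold change was -0.61 (SE 0.082, adjusted p 2e-07) in Trp53-KO and -0.68 (SE 0.081, adjusted p 1.7e-08) in E6l2-Trp53-KO cells, by edgeR. In E6l2-KO cells it was -0.38 (adjusted p 0.00032). In wildtype cells it was -0.26 (adjusted p 0.00936), which was lost without high density replicate 1 or DMSO replicate 3. Pes1 was called in E6l2-Trp53-KO cells only, which does not show that its response differed from that in the other genotypes.

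Ubtf and Rrn3 fell in every genotype among the RNA polymerase I genes. Ubtf had 110, 123 and 119 CPM at high density in E6l2-Trp53-KO cells, against 169, 170 and 171 CPM in DMSO, and 128, 148 and 154 CPM in wildtype cells, against 161, 165 and 166 CPM in DMSO. The groups were apart in both, more widely in the first (log2 fold change -0.54, SE 0.053, adjusted p 3.25e-10, edgeR). Polr1b had 77.2, 91.5 and 96.3 CPM at high density in E6l2-Trp53-KO cells, against 99.3, 108 and 108 CPM in DMSO. Of the snoRNP proteins, Nhp2 fell in all 4 genotypes, by 0.55 on the log2 scale in Trp53-KO cells (119 ± 3.90 CPM against 174 ± 9.86 CPM in DMSO, SD, n = 3 each; SE 0.081, adjusted p 1.06e-06, edgeR). All 4 box C/D genes fell in Trp53-KO and E6l2-Trp53-KO cells, and 0 and 1 in wildtype and E6l2-KO cells.

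Imp3, a protein of the U3 snoRNP, went the other way in each genotype. It had 96.9, 90 and 92.4 CPM at high density in wildtype cells, against 74.2, 76.1 and 78.7 CPM in DMSO, and 97.1, 101 and 93.1 CPM in E6l2-KO cells, against 79.5, 78.6 and 82.5 CPM in DMSO. Both pairs of groups were apart (log2 fold changes 0.29 and 0.28; adjusted p 3.49e-05 and 7.75e-05, edgeR). It was at 0.15 (adjusted p 0.0249) in Trp53-KO and 0.20 (adjusted p 0.00216) in E6l2-Trp53-KO cells, by edgeR. The call in Trp53-KO cells was lost in 7 of 14 other settings, library totals and the length and GC offset among them. That in E6l2-Trp53-KO cells was lost in 1 of 14, library totals. The helicase Ddx10 rose in wildtype, E6l2-KO and Trp53-KO cells, Gar1 and Wdr74 in wildtype cells, and Noc2l in wildtype and Trp53-KO cells. The Noc2l call in Trp53-KO cells (0.13, adjusted p 0.05 when rounded) was lost in 10 of 14 other settings. The calls on Gar1, Noc2l and Wdr74 in wildtype cells were lost on library totals and with the length and GC offset. On library totals Imp3 was the member that stayed higher in wildtype and in E6l2-KO cells.

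Other pathway genes were mixed at high density. Of 40 other small subunit genes 13, 14, 23 and 29 fell, and of 46 other large subunit genes 10, 20, 23 and 32 fell, in wildtype, E6l2-KO, Trp53-KO and then E6l2-Trp53-KO cells. Pno1, a small subunit factor, stood at -0.43, -0.46, -0.61 and -0.77, and Nop53, a large subunit factor, at 0.60, 0.53, 0.51 and 0.54 in the same order. Ribosomal protein genes rose: 39, 38, 36 and 37 of 40 were higher. Of 20 S phase genes, 12, 12, 18 and 16 fell. Myc had 265, 269 and 275 CPM at high density in wildtype cells, against 158, 163 and 162 CPM in DMSO (log2 fold change 0.74, adjusted p 3.05e-10, edgeR), and was higher by 0.65, 0.51 and 0.56 in E6l2-KO, Trp53-KO and then E6l2-Trp53-KO cells. Myc RNA was higher while most called members were lower in each genotype (in wildtype cells 5 of 11 without high density replicate 1), and its part in their change was not tested.

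**Figure D4:**
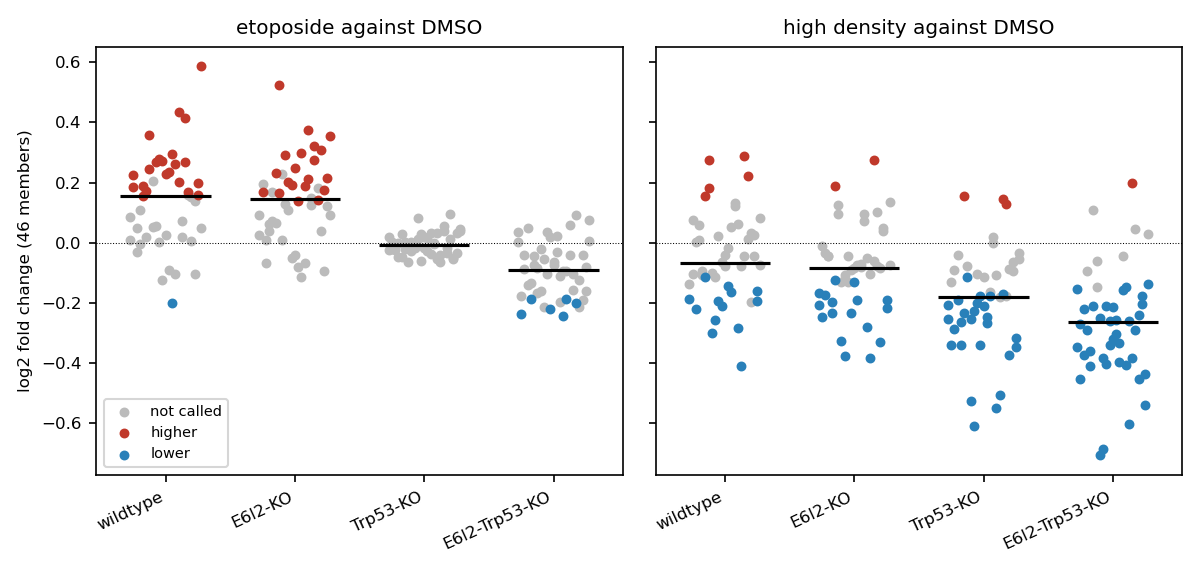
Log2 fold change of each of the 46 members (points, coloured by call) against DMSO of the same genotype under etoposide (left) and at high density (right), with black bars at the median. Under etoposide the medians are 0.16, 0.15, -0.01 and -0.09 in wildtype, E6l2-KO, Trp53-KO and then E6l2-Trp53-KO cells on the TMM scale (-0.03, 0.00, -0.01 and -0.05 on library totals).

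Etoposide shifted the members upward relative to the middle of all genes in the genotypes with Trp53. On the TMM scale 22 members rose and 1 fell in wildtype cells (41.5% of all genes called; 20.3% higher, 21.1% lower), and 20 rose and none fell in E6l2-KO cells (35% called; 18.9% higher). The medians were 0.16 and 0.15. This direction rests on the scaling: on library totals 3 members were higher and 12 lower in wildtype cells (median -0.03) and 5 higher and 7 lower in E6l2-KO cells (median 0.00). There the median of all genes tested was itself -0.19 and -0.14. The share of called genes that were higher was 49.1% on the TMM scale and 13% on library totals in wildtype cells, and 53.9% and 15.1% in E6l2-KO cells. Relative to the median of all genes the members stood at 0.16 in wildtype and 0.15 in E6l2-KO cells on either scale.

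Of the box H/ACA proteins, 3 of the 4 genes were higher in both genotypes. In wildtype cells the call on Gar1 was lost on library totals and with a length and GC offset. Nop10 (chromosome 2, 112261926 to 112263269, plus strand, GENCODE M21 on GRCm38), the smallest of the 4 proteins, had 559, 550 and 580 CPM under etoposide in wildtype cells, against 373, 377 and 376 CPM in DMSO. In E6l2-KO cells it had 490, 498 and 461 CPM under etoposide, against 412, 359 and 362 CPM in DMSO. The groups were apart in both genotypes. The log2 fold change was 0.59 (SE 0.08, adjusted p 7.62e-07) in wildtype and 0.36 (SE 0.08, adjusted p 0.000827) in E6l2-KO cells, by edgeR. In Trp53-KO cells Nop10 had 354, 323 and 378 CPM under etoposide, against 353, 332 and 336 CPM in DMSO, and in E6l2-Trp53-KO cells 338, 349 and 361 CPM, against 396, 311 and 336 CPM in DMSO. Both of these pairs overlapped.

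Nhp2 behaved alike. It had 222, 236 and 240 CPM under etoposide in wildtype cells, against 168, 169 and 180 CPM in DMSO, and 235, 241 and 228 CPM in E6l2-KO cells, against 192, 170 and 181 CPM in DMSO. The groups were apart in both (log2 fold changes 0.43 and 0.37; adjusted p 5.3e-05 and 0.000498, edgeR). Gar1, the remaining core protein beside Dkc1, had 29.8, 27.2 and 26.4 CPM under etoposide in wildtype cells, against 23.3, 21.0 and 20.7 CPM in DMSO. It had 28.6, 37.9 and 31.4 CPM in E6l2-KO cells, against 23.1, 21.7 and 23.1 CPM in DMSO, which is higher by 0.52 on the log2 scale (SE 0.089, adjusted p 3.72e-05, edgeR). Dkc1, the catalytic member, was not called in either genotype.

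Of the other roles, 4 RNA polymerase I genes, 2 box C/D genes, 1 scaffold gene, 4 small subunit genes and 8 large subunit genes were higher in wildtype cells. In E6l2-KO cells these numbers were 3, 1, 1, 5 and 7. Imp3 had 99.6, 101 and 105 CPM under etoposide in wildtype cells, against 74.2, 76.1 and 78.7 CPM in DMSO (log2 fold change 0.42, SE 0.053, adjusted p 2.5e-07, edgeR). Fbl had 227, 245 and 229 CPM under etoposide in E6l2-KO cells, against 192, 183 and 184 CPM in DMSO (log2 fold change 0.32, SE 0.063, adjusted p 0.000177, edgeR). Rrn3 had 99.1, 90.4 and 90.5 CPM under etoposide in wildtype cells, against 83.4, 81.9 and 82.9 CPM in DMSO. Bop1 had 109, 127 and 118 CPM in wildtype cells, against 94.7, 97.9 and 102 CPM in DMSO. In each of these the groups were apart. Ncl alone was lower, at 298, 292 and 280 CPM under etoposide in wildtype cells, against 342, 339 and 318 CPM in DMSO (log2 fold change -0.20, SE 0.057, adjusted p 0.00556, edgeR). The call on Ncl was lost without wildtype DMSO replicate 1 or 2.

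Trp53-KO cells showed no called member under etoposide, and 0% of all genes were called. The members' log2 fold changes ran from -0.06 to 0.10, 0 members had an unadjusted p under 0.05, and DESeq2 called 0. Cdkn1a, the cell cycle inhibitor that p53 switches on, stood at 2.16 in wildtype, 2.04 in E6l2-KO, -0.06 in Trp53-KO and -0.09 in E6l2-Trp53-KO cells on the log2 scale. At high density Cdkn1a was higher with and without Trp53, by 2.394, 1.333, 2.765 and 1.736 in the same order. Etoposide left 6 members lower and none higher in E6l2-Trp53-KO cells (13.2% of all genes called, 7.25% lower), on library totals 4 and none. Polr1c, a subunit shared by RNA polymerases I and III, had 63.6 ± 5.78 CPM under etoposide, against 75.0 ± 1.29 CPM in DMSO (SD, n = 3 each; log2 fold change -0.24, SE 0.054, adjusted p 0.00356, edgeR). Imp4 was at -0.24 (adjusted p 0.0131), Emg1, a methyltransferase of 18S ribosomal RNA, at -0.22 (adjusted p 0.0191) and Noc2l at -0.20 (adjusted p 0.0135). Pes1 had 150, 150 and 137 CPM under etoposide, against 162, 171 and 165 CPM in DMSO. The calls on Imp4, Emg1 and Noc2l rest on etoposide replicate 3, a library that differed more from the others of its group (chi-square per degree of freedom 42.4 and 44) than those did from each other (4.15). Imp4 had 93.2, 94 and 69.4 CPM and Emg1 169, 165 and 125 CPM in the etoposide libraries 1, 2 and 3. Without that library Imp4 stood at -0.13 (adjusted p 0.093), Emg1 at -0.12 (adjusted p 0.127) and Noc2l at -0.15 (adjusted p 0.0781), by edgeR, while Polr1c kept its call. In all, 2 members were called with etoposide replicate 3 left out, 13 with replicate 1 left out and 14 with replicate 2 left out. The call on Emg1 was also lost without E6l2-Trp53-KO DMSO replicate 1, and that on Noc2l on library totals and with the length and GC offset. With only the groups of the comparison in the fit, Imp4, Emg1, Noc2l and Polr1c all lost their calls.

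Among related genes under etoposide, 38 of 40 ribosomal protein genes were higher in wildtype cells and 37 in E6l2-KO cells on the TMM scale, 0 in Trp53-KO cells and 1 in E6l2-Trp53-KO cells, where 1 was lower. Of the other small subunit genes 11 and 12 were higher in wildtype and E6l2-KO cells and none lower. Of the other large subunit genes 13 and 16 were higher and 4 and 3 lower, with Mdn1, a very large assembly ATPase, at -0.42 and -0.24. Myc was not called under etoposide in any genotype. Of 20 S phase genes, at most 2 were called in any genotype.

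Library makeup moved with the etoposide groups. Genes of the annotation's TEC class, tentative transcripts that await experimental proof, took 0.166% to 0.171% of counts under etoposide in wildtype cells, against 0.313% to 0.379% in DMSO, and 0.18% to 0.194% in E6l2-KO cells, against 0.258% to 0.339% in DMSO. Their share was 0.245% to 0.266% under etoposide in Trp53-KO cells, against 0.231% to 0.262% in DMSO, and 0.27% to 0.311% in E6l2-Trp53-KO cells, against 0.235% to 0.242% in DMSO. Under etoposide this share was thus lower without overlap in wildtype and E6l2-KO cells. There more members rose than fell on the TMM scale but not on library totals. It was higher without overlap in E6l2-Trp53-KO cells, where 6 members fell, but only 2 without etoposide replicate 3, the library with 0.311%. Whether the share and the members are linked was not tested. At high density, where more members fell than rose, the TEC share was also lower than DMSO without overlap in wildtype cells (0.259% to 0.297%). There it overlapped DMSO in E6l2-KO cells (0.242% to 0.311%). It was higher than DMSO without overlap in Trp53-KO (0.283% to 0.302%) and E6l2-Trp53-KO cells (0.252% to 0.322%) at high density. The longest annotated transcripts of the short members Nop10, Nhp2, Gar1 and Imp3 have 1.109, 1.042, 1.271 and 0.924 kb, against up to 10.012 kb among the members. Under etoposide 15 members were higher and 3 lower in wildtype cells (median 0.07) with an offset for transcript length and GC content. In E6l2-KO cells 16 were higher and 1 lower with it (median 0.11). In wildtype cells Gar1 was not called with that offset (0.07, adjusted p 0.596), and Nhp2 stood at 0.16 (adjusted p 0.0459), which was not called with the offset and the replicate block together (adjusted p 0.0506). Nop10 kept its call at 0.46 in wildtype cells, and Nop10, Nhp2 and Gar1 kept theirs in E6l2-KO cells, by edgeR. The part of RNA makeup in the result was not tested beyond that offset.

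The difference between genotypes in the etoposide response was tested directly. Trp53-KO minus wildtype had 13 members lower (23.2% of all genes called; 11.1% lower), with a median of -0.18. Nop10 differed by -0.54 (SE 0.11, adjusted p 0.000989), Imp3 by -0.37 (SE 0.075, adjusted p 0.000649), Nhp2 by -0.40 (SE 0.11, adjusted p 0.0101) and Gar1 by -0.42 (SE 0.13, adjusted p 0.0165), by edgeR. On library totals 2 members were lower and 4 higher (of all genes 236 lower and 3600 higher). The median was 0.01 where all genes had 0.18, so these differences too are relative to the middle of all genes. With the length and GC offset Imp3 (-0.09, adjusted p 0.256), Nhp2 (-0.15, adjusted p 0.22) and Gar1 (-0.16, adjusted p 0.455) lost their calls and Nop10 kept its own (-0.45, adjusted p 0.0015), by edgeR, also with the replicate block added. Nhp2 and Gar1 lost theirs on library totals too. Without Trp53-KO DMSO replicate 3 or Trp53-KO etoposide replicate 3 the count was 8 and Gar1 was lost. Without wildtype DMSO replicate 3 or Trp53-KO etoposide replicate 2 it was 21.

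E6l2-Trp53-KO minus E6l2-KO, a comparison chosen after seeing the data, had 22 members lower under etoposide (34.7% of all genes called; 18.6% lower), with a median of -0.21. Gar1 differed by -0.69 (SE 0.13, adjusted p 0.000153), Bysl by -0.52 (SE 0.12, adjusted p 0.00143), Bop1 by -0.51 (SE 0.11, adjusted p 0.00102) and Rrs1, a large subunit factor, by -0.50 (SE 0.097, adjusted p 0.000326), by edgeR. On library totals 11 were lower and 1 higher, where 603 of all genes were lower and 4206 higher. Of the ribosomal protein genes 37 of 40 were lower in Trp53-KO minus wildtype, and 28 in E6l2-Trp53-KO minus E6l2-KO.

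Loss of E6l2 made no called difference in the members' response to either treatment. E6l2-KO minus wildtype had 0 called under etoposide (0.0142% of all genes) and 0 at high density (0.00711%), with 1 and 0 members at an unadjusted p under 0.05. The members' differences ran from -0.23 to 0.17 under etoposide and from -0.15 to 0.09 at high density. E6l2-Trp53-KO minus Trp53-KO had 0 called under etoposide (0.206%) and 0 at high density (0.334%), with 10 and 5 at an unadjusted p under 0.05. DESeq2 called 0 in each of these 4 comparisons.

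At high density more members were called lower in the genotypes without Trp53, yet the difference between responses passed the test for single genes. Trp53-KO minus wildtype had 1 member lower (0.0925% of all genes called, 0.0356% lower), Wdr74, a large subunit factor, at -0.30 (SE 0.062, adjusted p 0.0457, edgeR), with a median of -0.13. E6l2-Trp53-KO minus E6l2-KO, chosen after seeing the data, had 1 lower (1.37% called, 0.669% lower), Ubtf at -0.32 (SE 0.074, adjusted p 0.019, edgeR), with a median of -0.18. The call on Wdr74 was lost in 11 of 20 other settings, library totals and the length and GC offset among them. The second comparison had 0 to 6 called when single libraries were left out, and Ubtf was lost without E6l2-KO high density replicate 2 or 3.

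In DMSO the genotypes hardly differed in these genes. E6l2-KO against wildtype had 0 members called (4.05% of all genes), with 6 at an unadjusted p under 0.05. Trp53-KO against wildtype had 1 called, higher (9.03% of all genes called, 3.54% higher), Wdr74, at 75.5 ± 2.96 CPM in Trp53-KO cells and 68.2 ± 1.64 CPM in wildtype cells (SD, n = 3 each; log2 fold change 0.15, SE 0.044, adjusted p 0.0311, edgeR). That call was lost without wildtype DMSO replicate 2 and without Trp53-KO DMSO replicate 1 or 3. It was also lost on library totals and with the length and GC offset, alone or with the replicate block. E6l2-Trp53-KO had 0 called against Trp53-KO (14.9%) and 0 against E6l2-KO (16.8%), with 3 and 4 at an unadjusted p under 0.05. DESeq2 called 0 in each of the comparisons with 0.

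**Figure D5:**
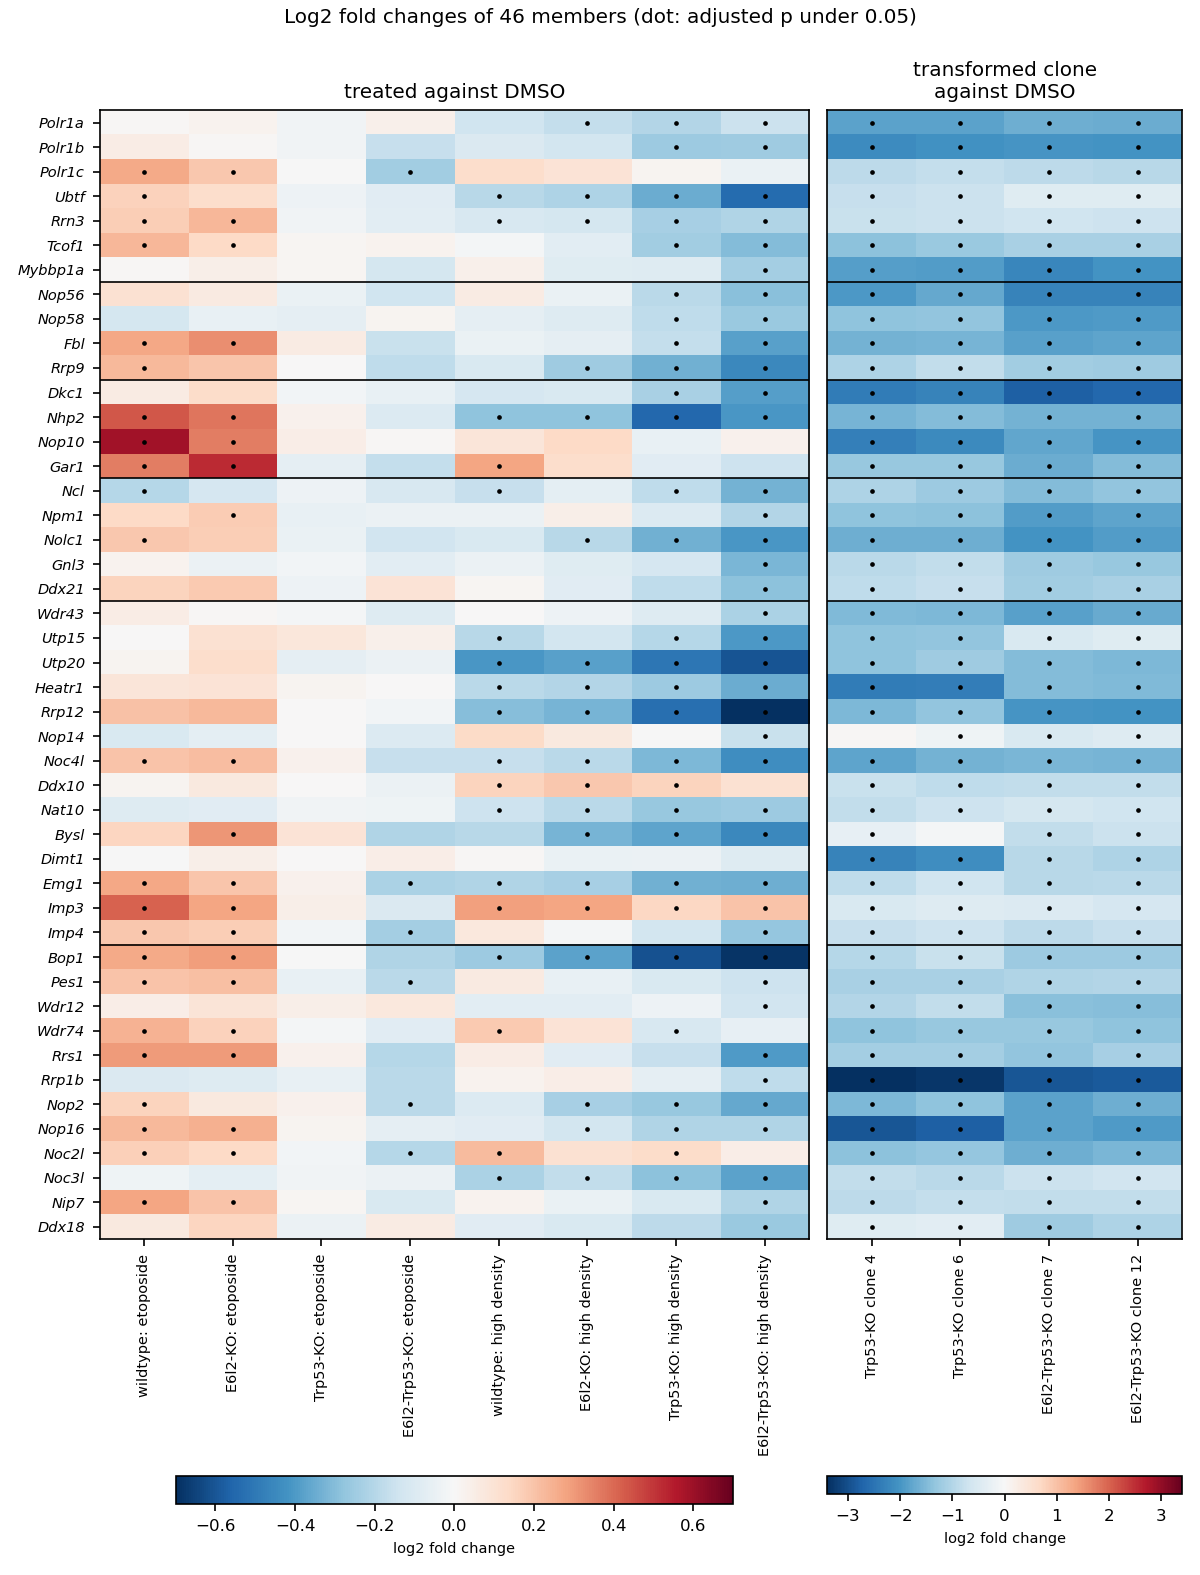
Log2 fold change of each of the 46 members (rows, grouped by role with lines between roles) against DMSO of the same genotype, for 8 treated groups (left) and 4 transformed clones (right, a wider colour scale), with dots at an adjusted p under 0.05. The clones are blue in nearly every row, and among the treated groups the etoposide reds of wildtype and E6l2-KO cells, most of which are lost on library totals, face the high density blues of Trp53-KO and E6l2-Trp53-KO cells.

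Across the 12 untransformed group means the members did not all follow the median of the other members on the log2 scale. Rrp9, the box C/D protein specific to the U3 particle, and Nolc1, a nucleolar chaperone, followed it most closely with a correlation of 0.98 each. Noc2l, Nop14 and Ddx10 were at -0.14, -0.17 and -0.56. These correlations run over 12 group means that share treatments and scaling, and describe the groups only.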

How the data were processed

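Cells were sorted straight into extraction buffer, their RNA was purified with PicoPure columns, and TruSeq libraries were made, per the labels' protocols. The sequencer was a NovaSeq and a SUSHI pipeline mapped the reads, per the series text. With the aligner, counting program, strand setting and build not given in the sources used here, reads of a gene and of an overlapping or antisense neighbour may be mixed. The authors deposited 1 table of expected counts per gene (estimated counts, not normalized) for 48 libraries, in which 71.5% of the values lay within 0.01 of a whole number. Counts were rounded to whole numbers. Per library the totals were 22.5 to 114.4 M.

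The members (by name) and all gene lists were chosen with earlier results of these data known. Genes were fitted with edgeR 4.0.16 in R 4.3.3 (TMM scaling, filterByExpr, quasi-likelihood F test, Benjamini-Hochberg adjustment over all genes tested, called at an adjusted p under 0.05). The 36 untransformed libraries made 1 fit (14059 genes, 24 residual degrees of freedom). Another held the 12 transformed libraries and 6 DMSO libraries (Trp53-KO and E6l2-Trp53-KO) (14403 genes, 12 degrees), and a last one held sums over the libraries of each clone (15865 genes, 2 degrees). CPM of DMSO cells differ slightly between the fits, which are scaled separately. SE is the absolute log2 fold change over the root of F. The fit of the untransformed libraries was tested on simulated data for 1 comparison, wildtype etoposide against DMSO. The other fits and the response differences were not. Identifiers of 25424 genes (99.6%) matched GENCODE M21, which gave chromosome, length and GC content. Length and GC content are those of each gene's longest annotated transcript, which need not be the one expressed. Promoters came from RefSeq.

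Full statistics were given by rule for up to 4 called members per comparison and direction with the largest change, and levels by library for 10 fixed members and for others that a result turned on. Alternatives were RLE size factors, no filter, only the groups of a comparison, DESeq2 1.42.0, the replicate number as a block, a length and GC offset, both together, leaving out each library or clone, and leaving out transformed libraries over 60 M counts. After seeing the data, library totals, the removal of mast cell and basophil markers, and the comparison of E6l2-Trp53-KO with E6l2-KO responses were added. The replicate numbers were not taken to pair the samples, since not every pair of any comparison correlated above 0.1: over 198 pairs of untransformed libraries with the same number the mean correlation of deviations was 0.01, and 13 pairs exceeded 0.1, 8 of them among the 18 between high density groups of different genotypes. Host genes of snoRNAs were not analysed here.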

Additional observations from a re-analysis of the deposited data

Results flagged for a closer look

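Each result here was picked out because a test of the difference between 2 genotypes in the same response passed the threshold (edgeR, adjusted p under 0.05 over all genes). Under etoposide 13 members differed in Trp53-KO minus wildtype, among them Nop10 at -0.54, Gar1 at -0.42, Nhp2 at -0.40 and Imp3 at -0.37 on the log2 scale. With the length and GC offset Gar1, Nhp2 and Imp3 lost their calls (-0.16, -0.15 and -0.09) and Nop10 kept its own (-0.45). Under etoposide 22 members differed in E6l2-Trp53-KO minus E6l2-KO, among them Gar1 at -0.69, Bysl at -0.52, Bop1 at -0.51 and Rrs1 at -0.50. At high density 1 member differed in Trp53-KO minus wildtype, Wdr74 at -0.30, and 1 in E6l2-Trp53-KO minus E6l2-KO, Ubtf at -0.32. The etoposide values are relative to the middle of all genes, and the counts on library totals are given with the results above.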

How the results depend on the processing

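Values are numbers of members called unless said otherwise, and the cause of each change was not tested. The shares of all genes called under these settings are not given beside them. On library totals, the number was 15 in wildtype etoposide (23 on the TMM scale), where the median reversed to -0.032, 12 in E6l2-KO etoposide (20), 29 in wildtype high density (18), 36 in E6l2-KO high density (19), 6 in the etoposide difference Trp53-KO minus wildtype (13), where the median reversed to 0.008, 12 in the etoposide difference E6l2-Trp53-KO minus E6l2-KO (22) and 0 in the high density difference Trp53-KO minus wildtype (1). With only the groups of a comparison in the fit, 31 were called in E6l2-KO etoposide, 0 in E6l2-Trp53-KO etoposide (6), 3 in DMSO E6l2-KO against wildtype, 5 in Trp53-KO against wildtype, 3 in E6l2-Trp53-KO against Trp53-KO, 4 in E6l2-Trp53-KO against E6l2-KO, 23 in the etoposide difference Trp53-KO minus wildtype, and 0 in the high density differences Trp53-KO minus wildtype and E6l2-Trp53-KO minus E6l2-KO. With no filter these were 14 in E6l2-Trp53-KO etoposide, 2 in DMSO E6l2-KO against wildtype, 24 in the etoposide difference Trp53-KO minus wildtype, and 3 and 6 in those high density differences.

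The replicate block called 2 members in DMSO Trp53-KO against wildtype, 1 in DMSO E6l2-Trp53-KO against Trp53-KO and 2 in the high density difference E6l2-Trp53-KO minus E6l2-KO, and it moved no other number of calls by over 1.5 times. Since the numbers were not taken to pair the samples, a call lost or gained under the block is not a weaker or stronger effect; 20 of 36 untransformed libraries correlated best with one of their own number. The length and GC offset, alone and with the block, called 2, 2, 8, 8, 0 and 6 in DMSO Trp53-KO against wildtype, DMSO E6l2-Trp53-KO against Trp53-KO, DMSO E6l2-Trp53-KO against E6l2-KO, the etoposide difference Trp53-KO minus wildtype and the high density differences Trp53-KO minus wildtype and E6l2-Trp53-KO minus E6l2-KO. With that offset, alone and with the block, Ncl under etoposide in wildtype cells reversed to 0.004. DESeq2 called 4 in the high density difference E6l2-Trp53-KO minus E6l2-KO. Without the libraries over 60 M counts 22 were called between the clone genotypes.

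Leaving out single libraries gave 18 to 26 in wildtype, 15 to 25 in E6l2-KO, 0 in Trp53-KO and 2 to 14 in E6l2-Trp53-KO etoposide, and 11 to 18, 10 to 19, 22 to 29 and 32 to 39 at high density in the same order. It gave 0 to 1 in DMSO E6l2-KO against wildtype, 0 to 2 in Trp53-KO against wildtype, and 0 in E6l2-Trp53-KO against Trp53-KO and against E6l2-KO. The etoposide differences gave 0 (E6l2-KO minus wildtype), 8 to 21 (Trp53-KO minus wildtype), 0 to 2 (E6l2-Trp53-KO minus Trp53-KO) and 20 to 28 (E6l2-Trp53-KO minus E6l2-KO), and the high density differences 0, 0 to 1, 0 and 0 to 6. Clone 4 gave 45, clone 6 44 to 45, clones 7 and 12 46, and the clone genotypes 4 to 10, with a median of -0.089 to 0.043, which reversed without Trp53-KO clone 6 and without E6l2-Trp53-KO clone 7. For 74 values of named genes, 997 of 1096 alternatives kept direction and call, 97 lost the call and 2 turned. Depth was high for these genes, so the spread between 3 libraries limits the precision.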

Other observations

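High density libraries with the same replicate number deviated together more often than others: 8 of 18 pairs between genotypes had a correlation over 0.1, the highest at 0.44, against 0 of 18 under etoposide and 1 of 18 in DMSO. The labels do not say what the number marks. In clone 12 replicate 3, the library of 114.4 M counts, genes of the annotation's TEC class took 0.817% of counts, against 0.263% in the lowest library of that clone.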
